A study of Mus musculus with 8 samples.

Results

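Endothelial identity genes are described here in cultures of adult mouse ventricular cardiomyocytes. A fixed list of 39 genes was taken, and all those whose symbol is in the deposited gene table were kept, which gave 38 of the 11367 genes tested. Ly6h is the 1 listed gene not in that table and is not analysed here. The rule uses gene names and no measured value, but the list was chosen with earlier results of these data known. Counts over the list are therefore descriptions. Cardiomyocytes were isolated from hearts of C57BL/6 mice (C57BL/6J is the strain named in the Methods) and kept for 24 hours either in M199, a defined culture medium (control, n = 4 libraries), or in medium that CCR2+ cardiac macrophages had conditioned (conditioned, n = 4 libraries). The macrophages were GFP+ cells sorted from Ccr2gfp/+ hearts 4 weeks after transverse aortic constriction (TAC), an operation that loads the left ventricle with pressure, and they conditioned M199 with FBS for 24 hours. Both media received Blebbistatin, which stops contraction, with ITS and CD lipid, while FBS is named for the macrophage medium alone, so serum and macrophage products cannot be told apart. Whether the 4 libraries of each medium are from different hearts is not stated, and the p values below therefore measure the spread between libraries, which may be technical.

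Endothelial cells line every blood vessel and are the most numerous nonmyocyte cells of the heart, where each cardiomyocyte lies against a capillary. Their identity rests on transcription factors of the ETS family (Erg, Fli1) and the SoxF family (Sox7, Sox17, Sox18), on junction proteins such as VE-cadherin (Cdh5), and on receptors for VEGF (Kdr, Flt1) and angiopoietins (Tek). Cardiomyocytes are not known to make VE-cadherin or PECAM-1. Gene levels below are FPKM, fragment counts scaled to transcript length and to the size of the library. For some genes the gene and the transcript table give different levels, so orders between genes hold for the table named.

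The regulatory DNA of the genes described can be read directly. RefSeq promoter entries (GRCm38.p6) were matched for 19 of the 38 genes, and 4 are shown, each as the 250 bases before the start site. Eng is the 1 identity marker with an entry, Cd34 had the highest log2 fold change, Emcn carries matches to both an ETS and a SOX motif, and Rgcc had the lowest log2 fold change. Capitals mark matches to an ETS motif (CCGGAAG or CAGGAAG), a SOX motif (AACAAT) or a GATA motif (AGATAA) on either strand. The matches in the windows shown do not overlap one another.
Eng promoter, chr2:32646345-32646594, plus strand: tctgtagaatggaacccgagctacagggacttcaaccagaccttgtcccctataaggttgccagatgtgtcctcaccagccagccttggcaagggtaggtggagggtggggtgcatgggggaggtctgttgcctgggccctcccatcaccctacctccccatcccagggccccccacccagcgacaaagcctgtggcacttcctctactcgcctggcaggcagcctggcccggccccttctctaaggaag
Cd34 promoter, chr1:194938571-194938820, plus strand: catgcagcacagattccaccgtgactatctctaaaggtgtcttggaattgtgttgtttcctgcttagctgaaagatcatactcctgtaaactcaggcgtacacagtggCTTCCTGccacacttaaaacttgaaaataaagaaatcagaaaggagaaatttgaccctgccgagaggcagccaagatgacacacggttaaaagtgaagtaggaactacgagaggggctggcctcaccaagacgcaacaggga
Emcn promoter, chr3:137340828-137341077, plus strand: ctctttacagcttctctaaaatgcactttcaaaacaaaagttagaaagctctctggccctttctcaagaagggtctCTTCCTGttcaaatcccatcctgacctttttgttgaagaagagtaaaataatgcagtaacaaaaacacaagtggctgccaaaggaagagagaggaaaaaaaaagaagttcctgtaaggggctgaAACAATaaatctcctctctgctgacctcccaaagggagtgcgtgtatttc
Rgcc promoter, chr14:79301636-79301885, minus strand: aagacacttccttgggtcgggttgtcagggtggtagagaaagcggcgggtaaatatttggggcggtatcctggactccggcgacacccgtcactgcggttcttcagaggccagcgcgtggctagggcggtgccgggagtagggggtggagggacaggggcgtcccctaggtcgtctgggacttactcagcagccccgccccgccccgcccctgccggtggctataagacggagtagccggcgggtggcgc
Cd34 and Emcn each hold CAGGAAG on the reverse strand, and Emcn also holds AACAAT close to the start site. The Eng and Rgcc windows hold none of these letters, which says nothing about the factors. Over the 25 promoter entries of the members, 8 (32.0%) held an ETS motif, against 17.0% of the 32851 promoters in the RefSeq table. All 8 held CAGGAAG, which was in 10.8% of all promoters. CCGGAAG was in 0 of the member entries and in 6.91% of all promoters. A SOX motif was in 12.0% of the member entries and 9.42% of all promoters, and a GATA motif in 8.0% and 9.99%. These shares are descriptions of letters, not of factor binding.

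The FPKM of each library summed to between 313169 and 387597, and depth is unknown because the table carries no read totals. Transcripts of mitochondrially encoded genes took 30.2% to 40.7% of the sum in 7 libraries and 63.0% in conditioned replicate 4. The 16 cardiomyocyte markers summed to between 5440 and 14800 FPKM, and the 38 endothelial genes to between 244 and 1030 FPKM. Sums over unlike lists do not give the share of each cell type. The cardiomyocyte sum was lowest in conditioned replicate 4 (5440 FPKM) and the endothelial sum was highest there (1030 FPKM). Conditioned replicate 4 and the low control replicates 2 and 4 are therefore left out in turn beside the results they touch.

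The 3 markers that fixed the cell type, Pecam1, Cdh5 and Eng, were detected in all 8 libraries and were higher in conditioned medium without passing the test. Pecam1 encodes CD31, an adhesion molecule of endothelial junctions, and lies on chr11:106654217-106750628 of GRCm38. Its levels were 30.9, 22.2, 28.7 and 16.1 FPKM in control replicates 1 to 4 and 38.6, 31.7, 32.1 and 65.0 FPKM in conditioned replicates 1 to 4. All 4 conditioned libraries lay above all 4 control libraries, by less than 1 FPKM at the nearest point, and the log2 fold change (conditioned over control, on the log2(FPKM + 1) scale, with its standard error SE) was 0.73 (SE 0.27, limma adjusted p = 0.425).
Cdh5, the gene of VE-cadherin on chr8:104101625-104144511, was at 49.7, 37.9, 49.8 and 24.9 FPKM in control medium and at 65.1, 50.6, 52.0 and 94.4 FPKM in conditioned medium. The groups again did not overlap, and the log2 fold change was 0.68 (SE 0.27, limma adjusted p = 0.453). Eng encodes endoglin, a coreceptor for BMP9 and other TGF-beta family ligands, lies on chr2:32646595-32682669 and had the highest mean level of the list in the gene table (61.0 FPKM over 8 libraries). It was at 63.5, 35.1, 50.5 and 26.8 FPKM in control medium and at 74.3, 62.3, 63.1 and 112 FPKM in conditioned medium. Control replicate 1 overlapped the conditioned range, and the log2 fold change was 0.84 (SE 0.28, limma adjusted p = 0.366).

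**Figure D1:**
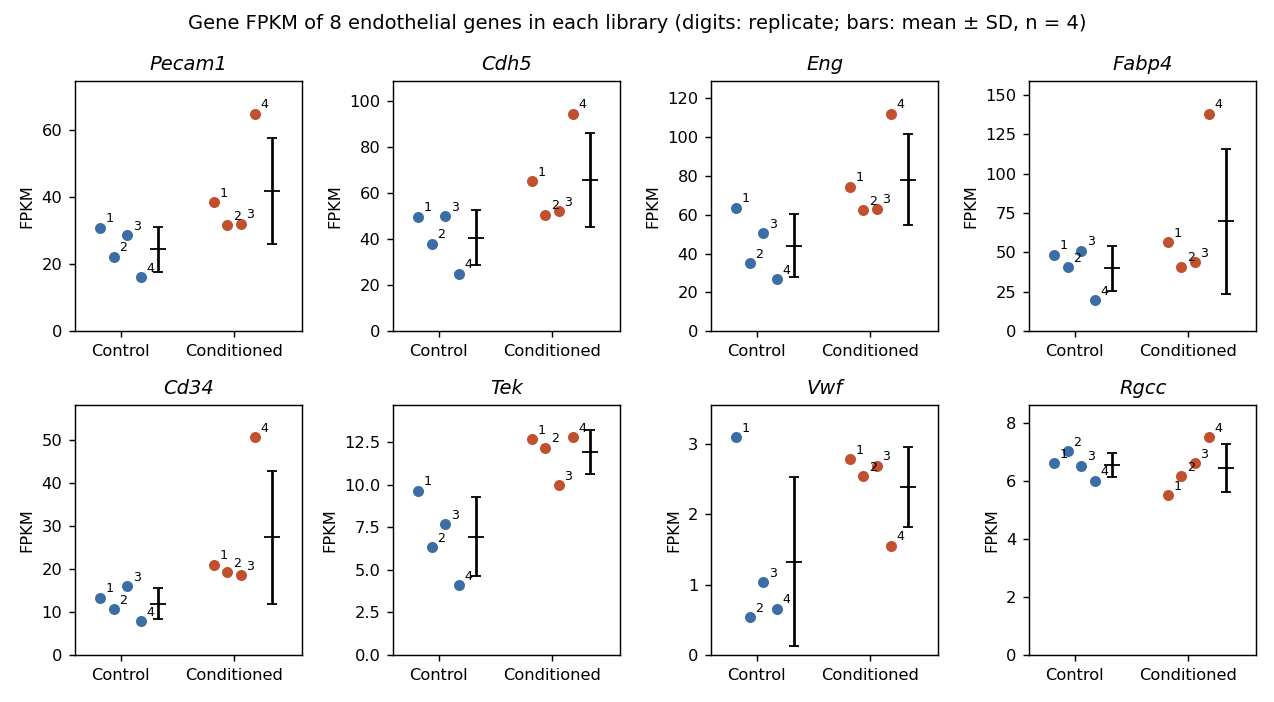
Gene FPKM (vertical axis, linear from 0) of 8 members in each control and conditioned library; digits give the replicate, and the bars are the mean ± SD of 4 libraries. Conditioned replicate 4 is highest for Pecam1, Cdh5, Eng, Fabp4 and Cd34, at 65.0, 94.4, 112, 138 and 50.6 FPKM, while it is lowest of the conditioned libraries for Vwf, and Rgcc lies between 5.50 and 7.49 FPKM in all 8.

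Over the list, 37 of the 38 genes had a log2 fold change above 0, as had 53.9% of all genes. None passed the test at an adjusted p under 0.05 with limma, where 0.554% of all genes rose and 0.0% fell. At an unadjusted p under 0.05, 28 of the 38 were higher and 0 lower, against 8.78% of all genes higher and 0.845% lower. Of these, 24 were at least 1.5-fold higher on the log2(FPKM + 1) scale, which understates changes of low genes, against 4.11% of all genes. Array weights, a setting of limma that gives noisy libraries less influence, called 14 members, all higher, where 7.76% of all genes were called higher. An F test of each gene with library size as a covariate called 0 genes over the whole table, and thus 0 members. At its unadjusted p under 0.05 it put 7 of the 38 higher, against 5.67% of all genes. The median log2 fold change of the members was 0.67, and that of all genes 0.02. Every conditioned library lay above every control library for 15 members, against 5.08% of all genes. The other direction held for 0 members and for 166 of the 11367 genes. More endothelial cells, more endothelial RNA per cell and a smaller share of RNA from other cells cannot be told apart in these bulk libraries.
The counts depended on single libraries. Without conditioned replicate 4, 17 members had a higher level by that threshold (9.79% of all genes), and without conditioned replicate 1, 18 were (6.55%). Without control replicate 2 the count was 15 (4.48% of all genes), and without control replicate 4 it was 10 (4.83%). Without control replicates 2 and 4 together 1 member was left (1.94% of all genes), and the median log2 fold change was 0.30, against -0.09 over all genes. The number of separated members cannot fall when libraries are left out. It was 15 without conditioned replicate 4 (9.86% of all genes), control replicate 2 (5.28%), control replicate 4 (5.44%) or both of these controls (5.83%). Without control replicate 1 it was 25 (16.2% of all genes), and 2 members, Vwf and Plvap, rose (0.968%). The log2 fold change was smaller by over 1.5 times for 7 members without conditioned replicate 4, for 7 without control replicate 4 and for 32 without control replicates 2 and 4. These controls were low and conditioned replicate 4 was high for most members, so smaller values without them follow from that choice. The matching shares of all genes were not counted.

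**Figure D2:**
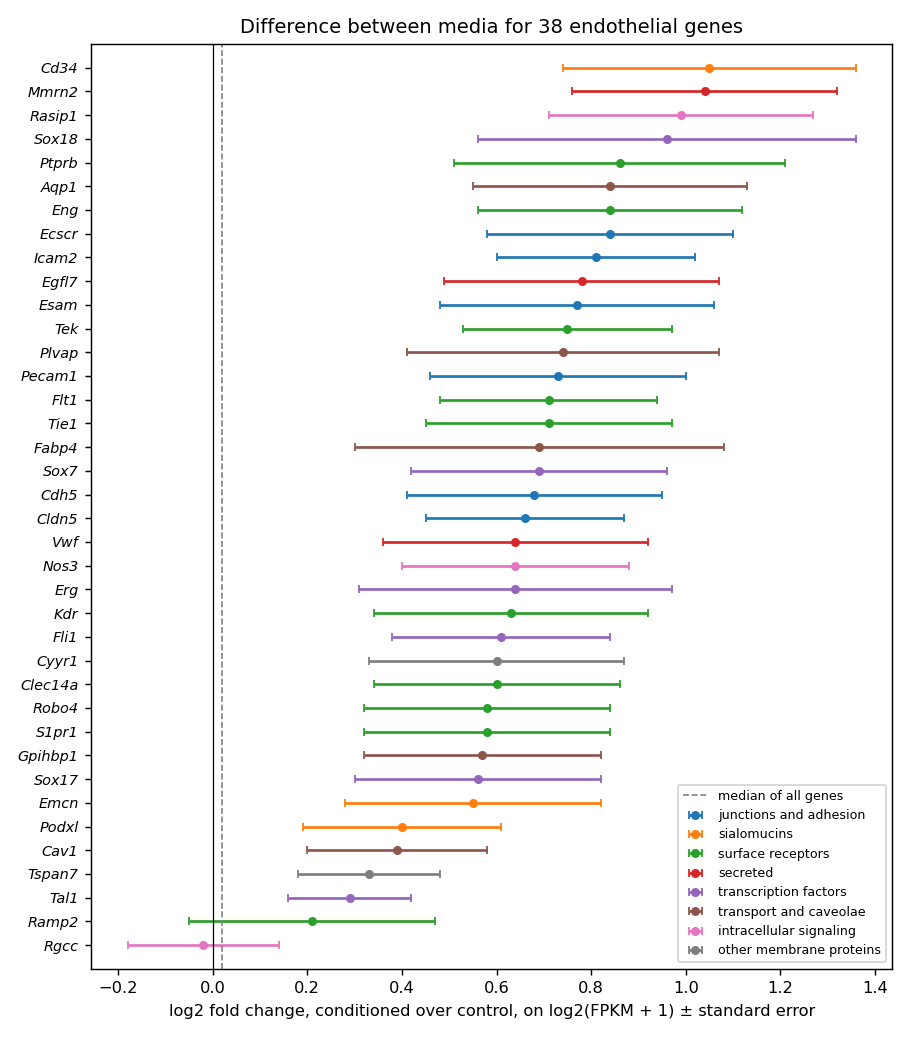
Log2 fold change on the log2(FPKM + 1) scale (horizontal axis, conditioned over control) of the 38 members, with the standard error from limma and colors for the role groups; the dashed line is the median of all genes. The values run from -0.02 for Rgcc to 1.05 for Cd34, and 37 of the 38 lie above 0, none at an adjusted p under 0.05.

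For all 6 junction and adhesion genes every conditioned library lay above every control library, against 5.08% of all genes. Beside Pecam1 and Cdh5 these are Esam and Icam2, immunoglobulin-type adhesion molecules, Cldn5, the claudin of endothelial tight junctions, and Ecscr, a surface protein of endothelial cells. Their log2 fold changes ran from 0.66 to 0.84, all 6 at an unadjusted p under 0.05 (8.78% of all genes). The separation was narrow for several of them. The lowest conditioned and highest control library were at 16.7 and 16.6 FPKM for Esam, 31.7 and 30.9 for Pecam1, and 50.6 and 49.8 for Cdh5. They were at 10.8 and 10.2 FPKM for Ecscr, and further apart for Cldn5, at 24.5 and 20.9 FPKM. Icam2 had the smallest p of the whole list. It was at 6.18, 5.07, 5.74 and 2.95 FPKM in control medium and at 8.14, 8.51, 8.92 and 11.6 FPKM in conditioned medium (log2 fold change 0.81, SE 0.21, limma adjusted p = 0.207). The groups did not overlap, and the gap between them was smaller than the range within either group.

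The sialomucins Cd34, Emcn and Podxl, heavily glycosylated proteins of the luminal surface, differed among themselves. Cd34, which also marks hematopoietic progenitors and some fibroblasts, was at 13.3, 10.6, 16.0 and 7.80 FPKM in control medium and at 21.0, 19.3, 18.5 and 50.6 FPKM in conditioned medium. Its log2 fold change was the highest of the list, 1.05 (SE 0.31, limma adjusted p = 0.311), but 0.72 and the 6th highest without conditioned replicate 4, where Mmrn2 was highest at 0.90. Without control replicate 1 Sox18 was highest, at 1.28. Emcn and Podxl had values of 0.55 and 0.40, and their groups overlapped.

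Of the 10 surface receptor genes, all had a log2 fold change above 0, 8 at an unadjusted p under 0.05, and the groups did not overlap for Tek and Flt1. Over all genes the shares were 53.9% above 0, 8.78% higher and 5.08% without overlap. Tek encodes TIE2, the angiopoietin receptor. It was at 9.65, 6.35, 7.68 and 4.11 FPKM in control medium and at 12.7, 12.2, 10.0 and 12.8 FPKM in conditioned medium (log2 fold change 0.75, SE 0.22, limma adjusted p = 0.297). Conditioned replicate 4 did not stand apart for Tek, and without it the log2 fold change was 0.71. The related receptor gene Tie1 had a log2 fold change of 0.71, and Ptprb, which encodes the phosphatase VE-PTP that acts on TIE2, one of 0.86.
Kdr, which encodes the main signaling receptor VEGFR2, was at 7.35 to 23.5 FPKM in control medium and 21.1 to 28.7 FPKM in conditioned medium, with overlap from control replicate 1 (log2 fold change 0.63, and 0.31 without control replicate 4). Flt1 encodes VEGFR1, which binds VEGF tightly and signals weakly, and ranged from 2.47 to 6.20 FPKM and from 6.45 to 9.67 FPKM (log2 fold change 0.71). In the transcript table Flt1 has 2 entries, a long one of 1333 codons and a short one of 688 codons by GENCODE M21. A short secreted VEGFR1 that traps VEGF is a known product of the gene. The short entry made up 27.2% ± 3.56 (SD, n = 4) of the Flt1 transcript FPKM in control medium and 28.0% ± 2.59 (SD, n = 4) in conditioned medium. These shares differed by less than the spread between libraries.
Robo4, Clec14a and S1pr1, genes of a guidance receptor, a C-type lectin and the sphingosine 1-phosphate receptor, had log2 fold changes of 0.58, 0.60 and 0.58. Without conditioned replicate 4 those of Robo4 and S1pr1 were 0.34 and 0.35. Ramp2, whose product makes the calcitonin receptor-like receptor respond to adrenomedullin, was among the lowest fold changes. Its levels were 5.25, 1.79, 4.16 and 4.34 FPKM in control medium and 5.27, 5.46, 2.99 and 4.29 FPKM in conditioned medium. The groups overlapped broadly, with a log2 value of 0.21 (SE 0.26, limma adjusted p = 0.823) that was -0.04 without control replicate 2.

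The genes of the secreted proteins, Mmrn2, Egfl7 and Vwf, were all higher at an unadjusted p under 0.05 (8.78% of all genes). Mmrn2 encodes multimerin 2, an extracellular matrix protein of endothelium that binds the CLEC14A lectin. It was at 18.4, 8.66, 14.6 and 6.65 FPKM in control medium and at 23.9, 20.2, 21.5 and 32.4 FPKM in conditioned medium, without overlap (log2 fold change 1.04, SE 0.28, limma adjusted p = 0.238). Vwf encodes von Willebrand factor, which endothelial cells store and release for platelet adhesion and which is low in most capillaries. Its levels were 3.09, 0.532, 1.03 and 0.655 FPKM in control medium and 2.78, 2.54, 2.69 and 1.55 FPKM in conditioned medium. Control replicate 1 was the highest of the 8 libraries and conditioned replicate 4 lay below the other conditioned libraries, the reverse of its place for most members. Without control replicate 1 the log2 fold change of Vwf was 0.96 and passed the test (limma adjusted p = 0.0442), against 0.64 with it (adjusted p = 0.492, and 0.00763 to 0.977 over the alternatives).

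The 6 transcription factor genes had log2 fold changes from 0.29 to 0.96. Fli1, an ETS factor shared with blood cells, had the smallest p of the group, with 4.59, 3.16, 4.11 and 2.01 FPKM in control medium and 6.77, 4.44, 4.54 and 7.36 FPKM in conditioned medium. Control replicate 1 overlapped the conditioned libraries, and the log2 fold change was 0.61 (SE 0.23, limma adjusted p = 0.433). Erg, its close relative and a maintainer of endothelial identity, reached 30.4 FPKM in conditioned replicate 4, while conditioned replicates 1 to 3 ranged from 9.30 to 12.4 FPKM. Its log2 fold change was 0.64, and 0.28 without that library.
Among the SoxF genes, Sox18 was the most abundant. It was at 31.4, 13.2, 23.0 and 6.10 FPKM in control medium and at 34.6, 24.9, 25.2 and 45.7 FPKM in conditioned medium, with overlap from control replicate 1 and a log2 fold change of 0.96. This was 0.55 without control replicate 4 and 0.22 without control replicates 2 and 4. Sox7 had a log2 fold change of 0.69, and Sox17, a factor of arterial endothelium, one of 0.56. Sox17 ranged from 0.322 to 2.54 FPKM in control medium and from 1.85 to 2.35 FPKM in conditioned medium. Tal1, a factor of blood and endothelial precursors, was the lowest member, at 0.592 to 0.992 FPKM in control medium and 0.921 to 1.49 FPKM in conditioned medium (log2 fold change 0.29, SE 0.13, limma adjusted p = 0.537). Low levels such as those of Tal1, Sox17 and Vwf are compressed on the log2(FPKM + 1) scale.

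Of the 5 transport and caveolar genes, 3 were higher at an unadjusted p under 0.05 (8.78% of all genes), and Fabp4 was not. Fabp4 encodes a fatty acid-binding protein that capillaries of heart share with adipocytes and macrophages. It was at 48.6, 40.6, 51.0 and 19.6 FPKM in control medium and at 56.6, 40.9, 43.7 and 138 FPKM in conditioned medium. Conditioned replicates 1 to 3 lay within or close to the range of control replicates 1 to 3. The log2 fold change was 0.69 (SE 0.39, limma adjusted p = 0.615), and it was 0.30 without conditioned replicate 4. In the transcript table its single entry averaged 255 FPKM over the 8 libraries, 4.65 times the gene value, and by summed transcripts Fabp4 rather than Eng (77.9 FPKM) was the most abundant member. That entry covers 896 bases, 0.2 of the 4489 exonic bases that GENCODE M21 annotates for the gene. For Tspan7, with an entry covering 0.245 of its exonic bases, the summed transcripts were 3.78 times the gene value. Levels between genes therefore depend on which of the 2 tables is read, while the median log2 fold change of the members was 0.70 from summed transcripts.
Aqp1, the water channel of capillaries and red cells, was at 20.3, 12.2, 17.5 and 7.28 FPKM in control medium and at 24.8, 20.6, 21.1 and 34.7 FPKM in conditioned medium. The groups were separate by a small margin, and the log2 fold change was 0.84 (SE 0.29, limma adjusted p = 0.380). Gpihbp1, which anchors lipoprotein lipase in capillaries, and Plvap, which forms the diaphragms of fenestrae and caveolae, had log2 fold changes of 0.57 and 0.74. Plvap was at 8.88 FPKM in control replicate 1, the highest of all 8 libraries, while control replicates 2 to 4 ranged from 1.88 to 3.94 FPKM. Its log2 fold change without control replicate 1 was 1.11 (limma adjusted p = 0.0429), against an adjusted p of 0.502 with it and 0.0199 to 0.977 over the alternatives. Cav1, the caveolin gene that fibroblasts and smooth muscle also express, was at 4.54 to 5.05 FPKM in control medium and 4.59 to 8.58 FPKM in conditioned medium (log2 fold change 0.39).

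Of the 3 intracellular signaling genes, Rasip1 and Nos3 were higher at an unadjusted p under 0.05 (8.78% of all genes) and Rgcc was not. Rasip1 encodes a RAS-interacting protein needed for vessel lumens. It was at 12.2, 7.29, 9.97 and 4.18 FPKM in control medium and at 14.9, 14.3, 14.3 and 24.5 FPKM in conditioned medium, without overlap (log2 fold change 0.99, SE 0.28, limma adjusted p = 0.279). Nos3, the endothelial nitric oxide synthase gene, had one of 0.64. Rgcc, a cell cycle regulator gene used as a capillary marker, was at 6.60, 7.02, 6.52 and 6.00 FPKM in control medium and at 5.50, 6.15, 6.60 and 7.49 FPKM in conditioned medium. The groups lay within one another, and its log2 fold change of -0.02 (SE 0.16, limma adjusted p = 0.968) was the only 1 of the 38 not above 0, between -0.09 and 0.08 over the alternatives.
Cyyr1 and Tspan7 complete the list. Cyyr1, a membrane protein gene of little known function, was at 4.71, 3.72, 5.30 and 1.53 FPKM in control medium and at 6.89, 5.54, 4.53 and 7.03 FPKM in conditioned medium, overlapping, with a log2 value of 0.60 (SE 0.27, limma adjusted p = 0.511). Tspan7, a tetraspanin gene also expressed in neurons, was at 5.55 to 7.15 FPKM in control medium and at 8.28 to 8.98 FPKM in conditioned medium. Its groups did not overlap although the log2 fold change was only 0.33, and conditioned replicate 4, at 8.43 FPKM, lay among the other conditioned libraries.

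The members also differed between libraries of the same medium. Control replicate 4 was the lowest of the 8 libraries for 32 of the 38 members and conditioned replicate 4 the highest for 32 of 38, against 29.4% and 12.7% of all genes. For all genes conditioned replicate 4 was more often the lowest library, in 50.3%. Control replicates 1 and 3 both lay above control replicates 2 and 4 for 35 of the 38 members and for 49.0% of all genes. Averaged over the 38 genes, the deviation from the 8-library mean was 0.10, -0.47, -0.06 and -0.88 in control replicates 1 to 4 and 0.31, 0.15, 0.11 and 0.75 in conditioned replicates 1 to 4, on the log2(FPKM + 1) scale. Control replicate 1 thus lay nearer to the conditioned replicates 2 and 3 than to control replicate 4. Conditioned replicates 1 to 3 all lay above control replicates 2 and 4 for 35 members, against 53.6% of all genes, and above control replicates 1 and 3 for 15, against 12.2% of all genes.
Between the highest and the lowest control library the members varied by a median of 2.36 times, from 1.11 for Cav1 to 7.89 for Sox17, where the median of all genes was 1.61. Those at 4 times or more were Sox17, Vwf, Sox18 and Plvap. Conditioned replicate 4 was at a median of 1.52 times the mean of the other conditioned libraries, from 0.582 for Vwf to 2.93 for Fabp4, against 0.686 over all genes. Erg (2.85), Cd34 (2.58), Ptprb (2.31) and Esam (2.30) were next to Fabp4. Vwf, Sox17 (0.844), Plvap (0.883), Ramp2 (0.939) and Tspan7 (0.967) lay below 1.

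**Figure D3:**
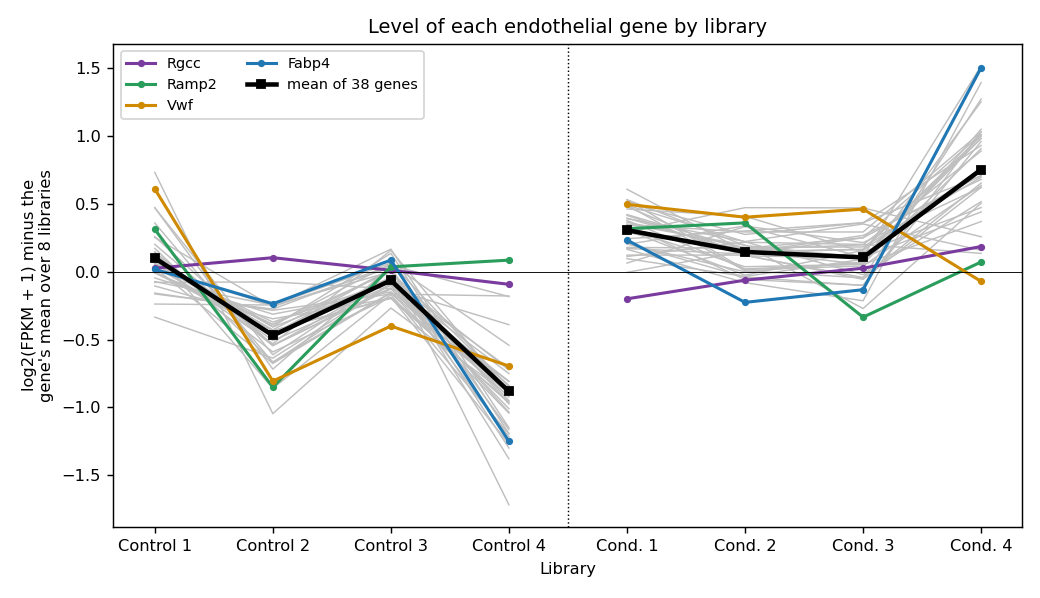
Deviation of log2(FPKM + 1) from the gene's own 8-library mean (vertical axis) in each library; each grey line joins the libraries of 1 medium for 1 gene, and the black line is the mean of the 38 genes. The mean is at -0.88 in control replicate 4 and 0.75 in conditioned replicate 4, with Rgcc near 0 throughout and Vwf below the mean of the list in conditioned replicate 4.

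Most members varied less between libraries relative to the 3 markers than in level. When the mean log2(FPKM + 1) of Pecam1, Cdh5 and Eng in each library was subtracted, the SD over the 8 libraries became smaller for 30 of the other 35 members, against 8.42% of all genes. The median SD of the 35 went from 0.52 to 0.22, while that of all genes went from 0.28 to 0.62. The marker mean itself ran from 4.53 in control replicate 4 to 6.48 in conditioned replicate 4. Subtracting so variable a mean tends to widen genes of small spread, so the 8.42% is not an even baseline for the members. Ecscr followed the markers most closely, with an SD of 0.09, then Aqp1 and Flt1 with 0.12 each, and Egfl7 and S1pr1 with 0.13 each. The 5 genes whose SD became larger were Rgcc (0.12 to 0.55), Ramp2 (0.41 to 0.59), Tspan7 (0.21 to 0.44), Tal1 (0.21 to 0.42) and Cav1 (0.31 to 0.40). Vwf (0.57 to 0.53) and Plvap (0.67 to 0.48) remained wide.
The same limma model was also fitted to the levels relative to the markers. Of the 35 members none passed an adjusted p under 0.05, where 0.0528% of all genes did, and 1 was lower and 0 higher at an unadjusted p under 0.05, against 39.7% of all genes in either direction, 39.5% lower and 0.202% higher. The 1 is Rgcc, with a relative log2 difference of -0.77 (SE 0.38, limma adjusted p = 0.125). The subtraction widened the spread of most genes, and the variance that limma shares between genes gave every member an SE of 0.34 to 0.45, also those with a small spread of their own such as Ecscr (SE 0.39). The count of 0 therefore does not show that the members differed between the media by the same amount as the markers. The highest relative log2 differences were 0.30 for Cd34 and 0.29 for Mmrn2, and the median was -0.11 over the 35 and -0.73 over all genes.

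**Figure D4:**
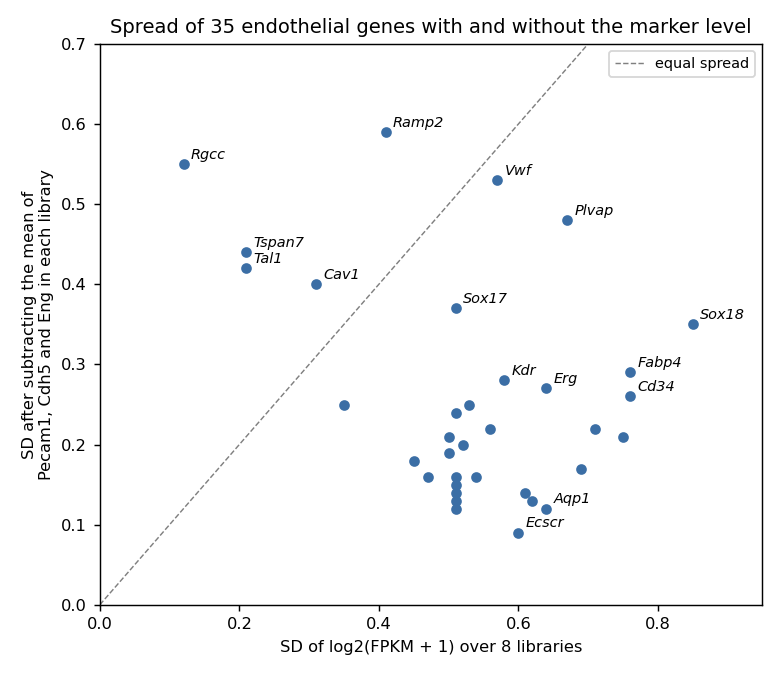
SD of log2(FPKM + 1) over the 8 libraries (horizontal axis) and SD after the marker mean of each library is subtracted (vertical axis) for the 35 members other than Pecam1, Cdh5 and Eng; the dashed line marks equal values. Of the 35, 30 lie below the line, Ecscr lowest at 0.09, and Rgcc, Ramp2, Tspan7, Tal1 and Cav1 lie above it.

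Markers of other heart cells moved with the endothelial genes between the control libraries. Fibroblast markers (16 of 16 in the table) were at a mean deviation of 0.27, -0.73, -0.13 and -0.45 in control replicates 1 to 4, and macrophage markers (12 entries for 11 of 16 genes, with Ccr2, Cx3cr1, Fcgr1, Cd163 and Ptprc not in the table) at 0.32, -1.09, -0.17 and -0.32. Mural markers (15 of 16) were at 0.46, -0.50, 0.06 and -0.61. Cardiomyocyte markers (16 of 16) went the other way, at -0.15, 0.40, 0.20 and 0.36. By mean deviation, control replicates 2 and 4 were thus low for every nonmyocyte list and high for the myocyte list. Their order differed, since macrophage and fibroblast markers were lowest in control replicate 2 and endothelial and mural markers in control replicate 4. Summed FPKM gave another order for 2 of the lists. The mural sum was highest in control replicate 4 (783 FPKM), and the macrophage sum was 104 FPKM there and 98.8 FPKM in control replicate 3.
By mean deviation, the lists parted in conditioned replicate 4. There the cardiomyocyte markers were at -1.15, against -0.07 to 0.25 in the other 3 conditioned libraries, and the endothelial genes at 0.75, against 0.11 to 0.31. The fibroblast mean was 0.25, within 0.22 to 0.31 for the others, and the macrophage and mural means were lower there, at -0.02 and -0.19. Markers within a list went opposite ways in that library. The fibroblast marker Dpt was at 15.7 FPKM, against 3.82 to 4.37 FPKM in the other conditioned libraries. Col1a1, of the same list, was at 1.48 FPKM, against 5.28 to 6.68 FPKM. The mural markers Pdgfrb and Mcam were at their highest of the 8 libraries, while Des was at 174 FPKM, against 396 to 472 FPKM. Summed FPKM ran from 37.1 to 92.6 in control and 90.1 to 109 in conditioned medium for fibroblast markers, from 25.8 to 183 and 151 to 176 for macrophage markers, and from 620 to 783 and 278 to 642 for mural markers, which include Des, a gene of cardiomyocytes as well. At an unadjusted p under 0.05, 4 fibroblast, 3 macrophage, 3 mural and 0 cardiomyocyte markers were higher and 1 mural marker was lower, against 8.78% and 0.845% of all genes. The median log2 fold changes were 0.40, 0.51, 0.47 and -0.41 for the fibroblast, macrophage, mural and cardiomyocyte lists. Dcn, the gene of decorin, was the 1 marker of these lists that rose. It was at 7.08, 2.72, 4.96 and 4.58 FPKM in control medium and at 10.1, 12.5, 12.6 and 13.5 FPKM in conditioned medium (log2 fold change 1.22, SE 0.23, limma adjusted p = 0.0336). The adjusted p of Dcn was 0.000721 to 0.474 over the alternatives, and above 0.05 when any library other than control replicate 1 was left out. Next to it were Lum (log2 fold change 1.11), the complement genes C1qa (1.19) and C1qb (0.90) of macrophages, the pericyte genes Rgs5 (0.84) and Kcnj8 (0.48), and the sarcomere genes Mybpc3 (-0.58) and Actc1 (-0.75), none of them past the test. The part of these other cells in the endothelial values was not tested.

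**Figure D5:**
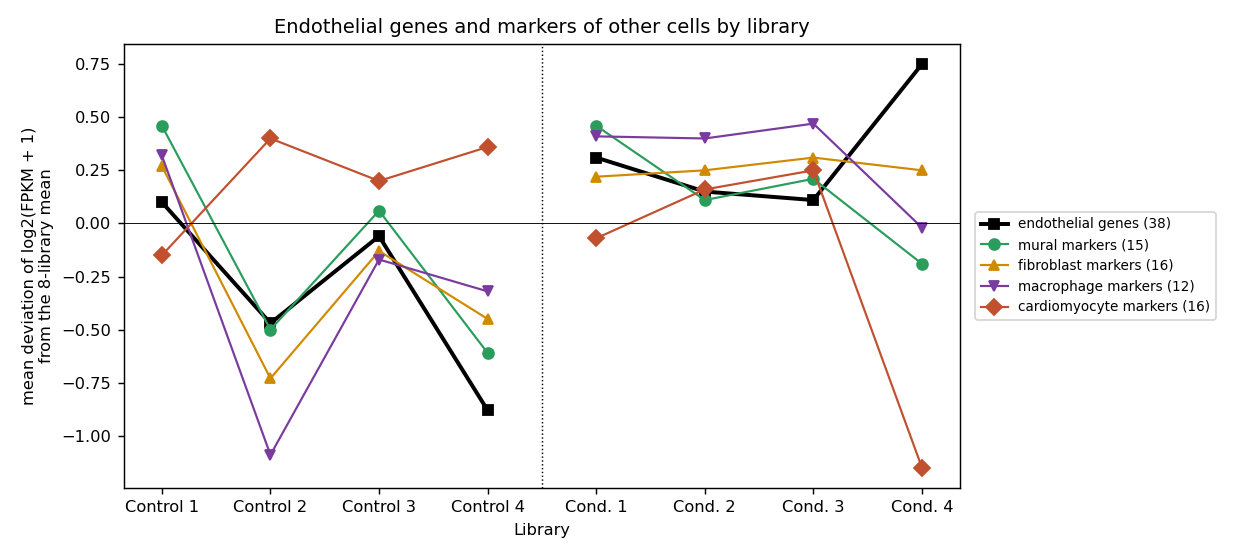
Mean deviation of log2(FPKM + 1) from the 8-library mean (vertical axis) for the 38 endothelial genes and 4 marker lists in each library; lines join the libraries of 1 medium, and the number of entries is in the legend. The nonmyocyte lists are low together in control replicates 2 and 4, and in conditioned replicate 4 the endothelial genes are at 0.75 and the cardiomyocyte markers at -1.15.

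Other vessel genes were read from 3 lists of ligands, receptors and subtype markers. Of 17 measured genes of vessel ligands (of 20 listed), none passed the test, 5 were higher and 1 lower at an unadjusted p under 0.05 (8.78% and 0.845% of all genes), and the median log2 fold change was 0.44, against 0.02 over all genes. Angptl4, a lipoprotein lipase inhibitor, and Adm, the gene of adrenomedullin, had the smallest p (log2 fold changes 0.99 and 0.85, limma adjusted p = 0.143 and 0.207). Adm was at 12.6 to 18.4 FPKM in control medium and 22.7 to 42.1 FPKM in conditioned medium. Of 29 vessel receptors, targets and factors, all in the table, none passed and 16 were higher and 0 lower unadjusted, against the same 8.78% and 0.845%, with a median of 0.57. They include Notch1 (log2 fold change 0.68, limma adjusted p = 0.344), at 1.31 to 3.59 FPKM and 3.71 to 5.31 FPKM, and Id3, a BMP target (0.82, limma adjusted p = 0.326).
Of 23 measured endothelial subtype and activation genes (of 25 listed, with Car4 and Lyve1 not in the table), 1 rose (0.554% of all genes), 8 were higher (8.78%) and 0 lower (0.845%) unadjusted, and the median log2 fold change was 0.48. The 1 is Selp, the gene of P-selectin, a leukocyte adhesion receptor of activated endothelium and platelets. It was at 4.2, 2.16, 2.52 and 0.590 FPKM in control medium and at 12.4, 11.1, 11.6 and 5.62 FPKM in conditioned medium (log2 fold change 1.8, SE 0.34, limma adjusted p = 0.0368). The groups did not overlap, and conditioned replicate 4, the highest library for most identity genes, was the lowest of the conditioned libraries for Selp. Its adjusted p was 7.8e-05 to 0.601 over the alternatives, and with limma above 0.05 when any library other than control replicate 1 or conditioned replicate 4 was left out. Relative to the 3 markers the log2 difference of Selp was 1.05 (limma adjusted p = 0.124), and 1.48 without conditioned replicate 4 (limma adjusted p = 4.74e-05). With array weights the limma adjusted p of this difference was 3.83e-07. Under every other alternative its adjusted p was 0.0897 to 0.65 (limma or the F test). Pdpn, a gene of lymphatic endothelium and of other cell types, was at 8.08 to 14.3 FPKM in control medium and at 25.5, 25.7, 28.0 and 96.0 FPKM in conditioned medium, without passing the test (log2 fold change 1.55, SE 0.38, limma adjusted p = 0.157).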

How the data were processed

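RNA was sequenced from 8 libraries of adult mouse cardiomyocytes, 4 per medium. The authors used cutadapt for trimming, Hisat2 for alignment (GRCm38) and StringTie and Ballgown for abundance, and deposited FPKM for genes and transcripts. Tool versions and the gene annotation were not given in the sources used here. Of 11368 lines in the gene table, 1 is empty. Every gene listed averages 0.5 FPKM or more in at least 1 group, so a member below that level would be missing. Low values did not come out as whole reads, and depth is unknown.
The test was limma (version 3.58.1, R version 4.3.3) on log2(FPKM + 1), with intensity-dependent variances, two-sided p values and Benjamini-Hochberg adjustment over all 11367 genes. This scale understates changes of low genes. The relative fit subtracts, in each library, the mean of Pecam1, Cdh5 and Eng. Members and lists were chosen with earlier results of these data known, so list counts are descriptions, and no test over a list was made. Full statistics are given for the 3 markers, the 3 most abundant members, the 3 highest and 3 lowest log2 fold changes and the smallest p of each role group, and, from other lists, for called genes and the 2 smallest p (values only in part). Transcript and promoter annotation came from GENCODE M21 and RefSeq on GRCm38. Alternatives were a pseudocount of 0.1, a filter at 1 FPKM, 2 rescalings, the F test with library size as a covariate, array weights, a replicate block, summed transcripts, each library left out, and control replicates 2 and 4 left out together.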

Additional observations from a re-analysis of the deposited data

Results flagged for a closer look

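Within each group of 4 libraries, the lowest and highest values of each member were compared with the rest of the group on the log2(FPKM + 1) scale, by the gap to the nearest library over the whole range (Dixon criterion). Of 76 groups, 9 stood out, where chance gives about 1 in 20, and the members share their libraries, so these are not separate events. In 7 of the 9 the library is conditioned replicate 4. It was high for Esam (41.2 FPKM, others 16.7 to 19.4), Cd34 (50.6 FPKM, others 18.5 to 21.0), Egfl7 (30.9 FPKM, others 16.3 to 17.8), Robo4 (10.9 FPKM, others 4.78 to 5.33), Cldn5 (36.0 FPKM, others 24.5 to 25.9) and Rasip1 (24.5 FPKM, others 14.3 to 14.9), and low for Vwf (1.55 FPKM, others 2.54 to 2.78). The other 2 are low controls, Cav1 in control replicate 2 (4.54 FPKM, others 4.96 to 5.05) and Tspan7 in control replicate 4 (5.55 FPKM, others 6.87 to 7.15).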

How the results depend on the processing

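The median log2 fold change of the members stayed above 0 under every alternative, from 0.30 without control replicates 2 and 4 to 0.82 without control replicate 1, with 36 to 38 of 38 genes above 0. Rescaling moved the median of all genes from 0.02 to 0.10 at most (equal nuclear sums), and array weights and leaving out conditioned replicate 4 each put it at 0.12. The 63 genes called over the table became 0 with the F test, 933 with array weights, 3 without control replicates 2 and 4, and 31 to 110 with 1 library left out. The members called, 0 of 38, became 14 with array weights, which gave conditioned replicate 4 a weight of 0.0826, and 0 to 2 with 1 library left out. The 28 members higher at an unadjusted p under 0.05 became 7 with the F test, 1 without control replicates 2 and 4, and 10 to 32 with 1 library left out. The 15 separated members became 13 with equal nuclear sums, 13 with summed transcripts and 14 with the other rescaling. With 1 library left out the number was 15 to 25, and it cannot fall there. In the fit relative to the 3 markers 0 members were called under each alternative. Signs reversed for Rgcc with equal nuclear sums (0.08), the F test (0.00), without control replicate 2 (0.01) and without conditioned replicate 1 (0.04), and for Ramp2 without control replicate 2 (-0.04) and without control replicates 2 and 4 (-0.07). With 1 library left out Rgcc ranged from -0.09 to 0.04 and Ramp2 from -0.04 to 0.35. The causes were not tested.
The replicate block gave a median of 0.67 and 0 members called. Deviations of same-numbered libraries correlated at 0.0469, 0.259, -0.176 and 0.0557, so the numbers are not taken as pairs, and the block changed no call of a member. Precision rests on 4 libraries a group, since depth is unknown.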
